A study of Sus scrofa with 8 samples.

Results

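The genes annotated to the KEGG tumour necrosis factor (TNF) signaling pathway were followed through 4 stages of pig lung differentiation. Their KEGG entry stood in 103 rows of the deposited table, and 100 genes of the 25578 in the table were kept after JAG1, MMP9 and MMP14 were left out. The table gave a symbol for 96 of them. Its description names CCL20, IL1B and SELE, and ENSSSCG00000060276 on chromosome 8, which also carries the KEGG chemokine signaling entry, has no name. After a filter on low counts 97 of the 100 were tested, and MMP3, IL1B and SELE were not. Counts of calls below are over these 97 genes. The filter takes out genes with very few counts in every stage, though some low genes, such as CSF2 and IL15, passed it. Many of the 100 genes serve other pathways too: 41 also carry the MAPK signaling entry, 41 the Toll-like receptor entry, 40 apoptosis and 28 NF-kappa B signaling.

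TNF is a cytokine made mainly by macrophages, and most tissues carry its receptor TNFR1, the product of TNFRSF1A. The bound receptor gathers the adaptor TRADD, the kinase RIPK1 and ubiquitin ligases, on which the kinase TAK1 and the IKK complex are switched on. IKK frees NF-kB from its inhibitor, and TAK1 starts the JNK and p38 kinase cascades that act on the AP-1 factors FOS and JUN. A later form of the complex can instead hold FADD and caspase-8, which leads to apoptosis, or RIPK3 and MLKL, which leads to necroptosis. In the lung, epithelium, stroma and endothelium answer TNF with chemokines and adhesion molecules that draw in leukocytes.

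Messenger RNA was sequenced at 4 stages, with 2 libraries each. The first is the pluripotent stem cell of the pig (PSC), the next is definitive endoderm (DE), then comes endoderm of the anterior foregut (AFE), and the last is the lung progenitor organoid (LPO). Endoderm is the germ layer that forms gut and lung. The labels give a stage name for each library and no strain, genotype, cell line, medium, day or passage. They do not say whether libraries of 1 stage are from separate cultures. The p-values therefore measure only the spread between these libraries, which may be technical.

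Deposited counts came to 42251431 and 36004372 in the PSC libraries and 61748702 to 67566269 in the other stages, or about 9001093 to 16891567 read pairs. Levels are given as CPM, the counts of a gene per 1000000 counts after TMM scaling, library 1 before library 2. The share of counts in the 100 genes was 0.242% and 0.235% in PSC, 0.286% and 0.293% in DE, 0.292% and 0.298% in AFE and 0.616% and 0.626% in LPO. Of the 100, 82 and 81 were above 0 in the PSC libraries, 93 and 91 in DE, 96 and 97 in AFE and 97 and 98 in LPO. Markers of the labelled stages were checked. Markers of pluripotency summed to 4574 and 5277 CPM in PSC and to at most 435 CPM elsewhere. Most of that PSC sum was POU5F1, with 4453 and 5156 CPM. Of that list LIN28A was highest in DE (41.4 and 29.5 CPM, against 3.97 and 5.23 CPM in PSC). SOX2 was highest in LPO (30.3 and 30.7 CPM, against 6.1 and 4.43 CPM in PSC), and NANOG and PRDM14 in PSC. Endoderm markers had their highest sum in DE, at 1259 and 1247 CPM. Of the endoderm list CXCR4 was highest in AFE (35.6 and 34 CPM, against 30.9 and 22.1 CPM in DE), and the others in DE. The lung factor NKX2-1 had 0 CPM in PSC and DE, 20.2 and 19.5 CPM in AFE and 33.7 and 34.2 CPM in LPO, while the surfactant gene SFTPC reached only 0.262 and 0.441 CPM in LPO. The lung list as a whole summed to 389 and 405 CPM in LPO and to 334 and 355 CPM in DE. Its members ETV5 (99.9 and 107 CPM in PSC, against 54.1 and 60.6 CPM in LPO) and ID2 ran against NKX2-1. ID2 was highest in DE (280 and 298 CPM, against 85.6 and 88.7 CPM in LPO), as was the gene that is itself named CPM. The foregut list was split as well. Its sum was 121 and 112 CPM in AFE, against 375 and 365 CPM in DE, most of it FOXA2 (96.8 and 87.1 CPM in AFE, against 297 and 292 CPM in DE), which is an endoderm marker too. HHEX was also lower in AFE than in DE, while SOX2 had 5.35 and 6.6 CPM in AFE, against 0.121 and 0.0701 CPM in DE, and PAX9 had 2.38 and 1.33 CPM in AFE, against 0.156 and 0.14 CPM in DE.

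Most of the tested genes were higher in LPO than in PSC, and the chemokines, VCAM1, ICAM1, TNFAIP3, JUNB, FOS, JUN and NFKBIA were among those that rose most at the last step. Calls are from edgeR's quasi-likelihood test over 19346 genes, with a Benjamini-Hochberg adjusted p under 0.05. In DE against PSC 49 of the 97 were higher and 15 lower, where 30.8% and 23% of all genes tested were called in those directions. In AFE against DE 24 were higher and 22 lower, beside 17.9% and 17.4% of all genes, which is near the background. In LPO against AFE 57 were higher and 13 lower, beside 30.2% and 29.6%. In LPO against PSC 75 were higher and 12 lower, beside 41.5% and 28.8%. These comparisons share libraries and are not independent of one another.

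At a change of 2-fold or more there were 35 higher and 4 lower in DE against PSC (22.8% and 11.6% of all genes), and 16 higher and 9 lower in AFE against DE (9.26% and 8.35%). LPO had 45 higher and 11 lower against AFE (22.7% and 20.6%), and 67 higher and 7 lower against PSC (34.4% and 22%). Among the 4 stages 93 of the 97 differed, beside 79.2% of all genes. Mean CPM was highest in LPO for 67 of the 97 (69.1%), beside 38.4% of all genes tested. The median log2 change of the pathway genes was 0.66, 0.01 and 0.92 in the steps to DE, AFE and LPO, with genes at 0 in a stage set at their bound. Without bounds it was 0.72, 0.02 and 0.92, beside 0.08, 0.00 and 0.09 over all genes.

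Scaling bears on the net comparison. The median log2 change in LPO against PSC was 1.86 for the pathway genes with genes at 0 in a stage set at their bound. Without bounds it was 2.03, beside 0.49 for all genes. The all-gene median was 0.37 with DESeq2 size factors and 0.00 after median centring. With median centring 65 pathway genes were higher and 15 lower in LPO than in PSC, and the share of all calls that were higher was 48% in place of 59%. In DE against PSC it gave 43 higher and 22 lower, with 44.9% of all calls higher in place of 57.2%. In LPO against AFE, limma on log2(FPKM + 1) gave 77 higher and 10 lower, with 66.9% of all calls higher in place of 50.5%. For a single gene, 2 libraries against 2 allow an exact permutation p of 0.333 at the smallest, so none is tested in that way.

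**Figure D1:**
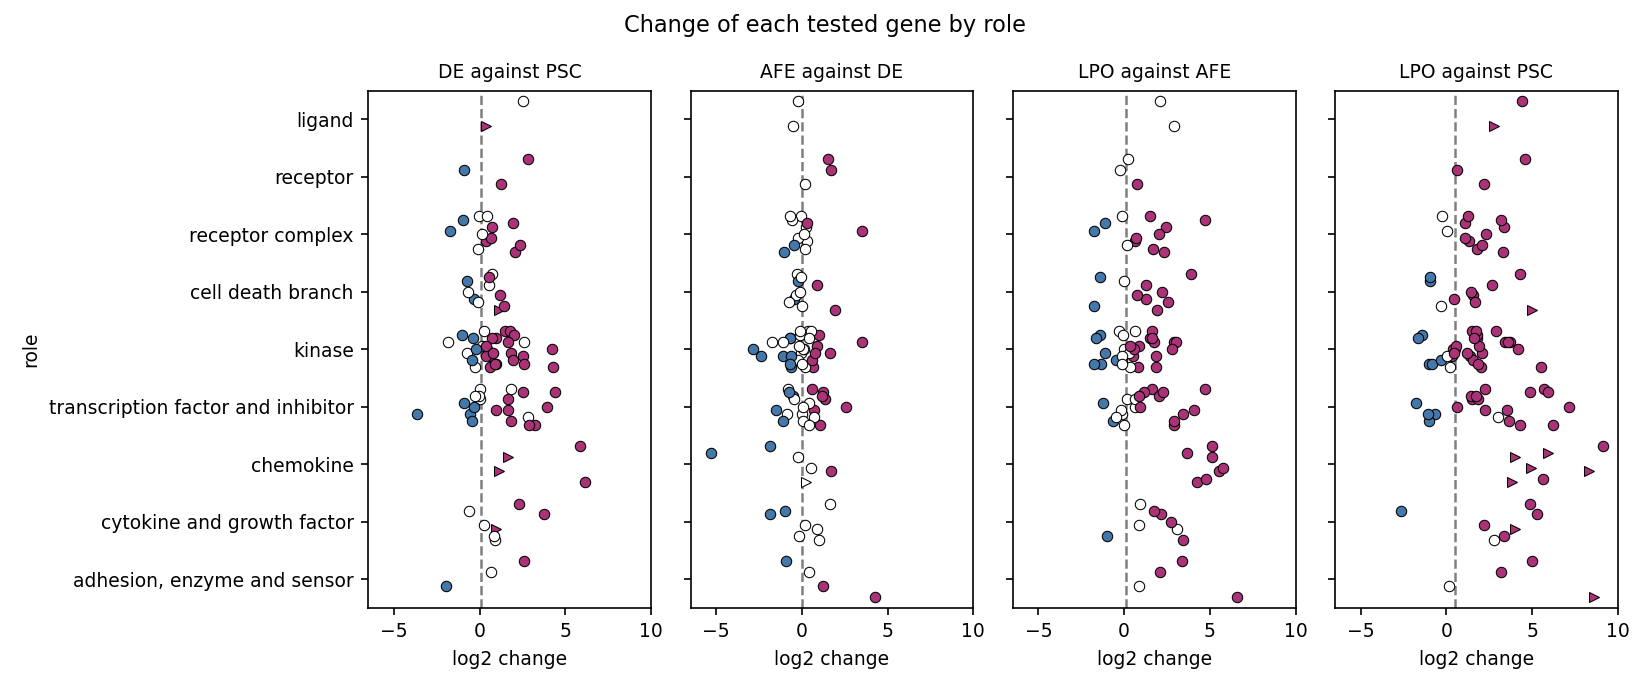
Log2 change of each tested gene (x axis) by role in the pathway (rows) for the 4 comparisons, with purple for a called rise, blue for a called fall, white for no call, and a dashed line at the median of all genes tested. Triangles are bounds against a floor of 3 read pairs per library, and genes at or under that floor in both stages are not drawn. In LPO against AFE all 7 chemokines lie at the right, between 3.68 and 5.79.

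**Figure D2:**
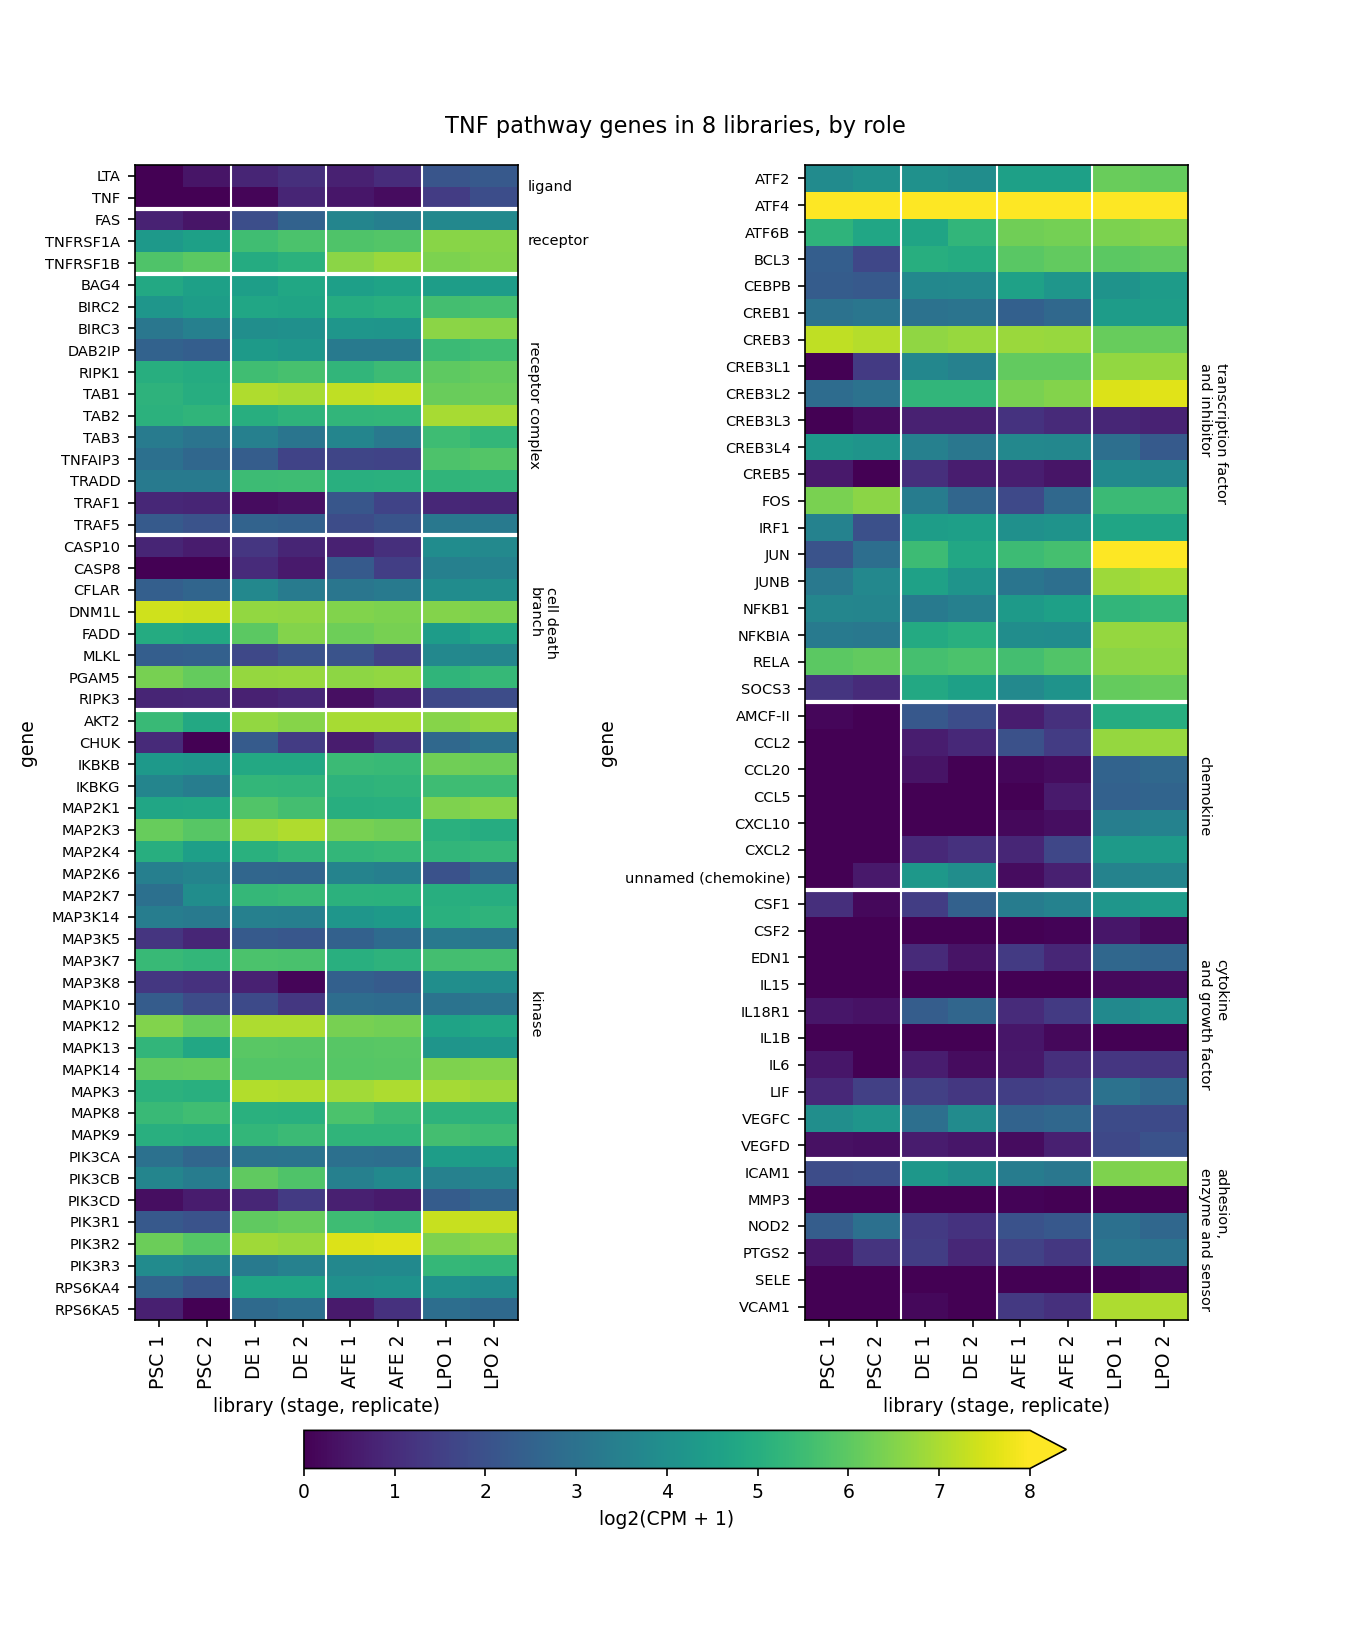
Level of 96 of the genes as log2(CPM + 1) in each of the 8 libraries, grouped by role, on a colour scale that ends at 8. CCL2, ICAM1 and VCAM1 are bright in both LPO libraries and dark in both PSC libraries. The other chemokines are dimmer in LPO, and ATF4 is at the top of the scale in all 8.

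Both ligands were low, with at most 3.7 CPM in any library, where 3 read pairs come to 0.15 to 0.357 CPM. TNF itself, on chromosome 7 from 23699628 to 23702416 in the coordinates of the file, had 0 CPM in both PSC libraries, 0.0692 and 0.771 CPM in DE, 0.392 and 0.2 CPM in AFE and 1.7 and 2.72 CPM in LPO. Both LPO libraries lay above all others, and DE and AFE overlapped. TNF was at least 6.75-fold higher in LPO than in PSC (adjusted p = 0.00388), a bound that sets each PSC library at 3 read pairs, or 12 counts. Against AFE its log2 change of 2.89 was not called (SE 1.11, adjusted p = 0.061). It was called with the DESeq2 Wald test (adjusted p = 0.0335) and with only the 4 libraries compared in the fit (0.00257). Leaving out 1 library of PSC or DE also gave a call, with 0.0436 and 0.0443 for the PSC libraries and 0.0137 and 0.0158 for those of DE. Lymphotoxin alpha (LTA), the neighbouring gene at 23696040 to 23698299 and a ligand of the same receptors, had 3.35 and 3.7 CPM in LPO, against 0 and 0.357 CPM in PSC. Its counting ratio was 21.7 (95% interval 7.3 to 107, adjusted p = 0.00822). It had 0.653 and 1 CPM in AFE, and LPO against AFE was not called (log2 2.09, SE 0.936, adjusted p = 0.089). That p was 0.00328 and 0.00354 on leaving out either PSC library.

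The receptors were well measured, and each had its own course. TNFRSF1A had 19.1 and 22.3 CPM in PSC, 45.3 and 51.8 CPM in DE, 54.5 and 57.1 CPM in AFE and 94.2 and 93.4 CPM in LPO. No stages overlapped. It was 2.35-fold higher in DE than in PSC (log2 1.23, SE 0.109, adjusted p = 4.1e-05) and 1.68-fold higher in LPO than in AFE (log2 0.75, SE 0.105, adjusted p = 4.2e-04), while AFE against DE was not called (adjusted p = 0.18). TNFRSF1B encodes TNFR2, which lacks a death domain and is best known from leukocytes and endothelium. It had 54.9 and 61.7 CPM in PSC, 29.2 and 33.8 CPM in DE, 97 and 110 CPM in AFE and 85.6 and 90 CPM in LPO. DE was its lowest stage: it was 1.85-fold lower in DE than in PSC (adjusted p = 2.8e-04) and 3.28-fold higher in AFE than in DE (adjusted p = 2.6e-05). LPO against AFE was not called (log2 -0.24, adjusted p = 0.0945), but it was with median centring (-0.39, adjusted p = 0.0227) and with only the libraries compared (0.0124).

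FAS, the death receptor that binds FAS ligand, was lowest in PSC. It had 0.694 and 0.357 CPM in PSC, 2.77 and 4.77 CPM in DE, 11.4 and 9.97 CPM in AFE and 12.4 and 13 CPM in LPO. It was 7.03-fold higher in DE than in PSC (adjusted p = 4.6e-04) and 2.84-fold higher in AFE than in DE (adjusted p = 0.00863, and 0.0541 without AFE replicate 1). Levels can be compared between genes only per transcript length, as FPKM. TNFRSF1A had 46.4 ± 0.424 FPKM and TNFRSF1B 27.8 ± 0.891 FPKM in LPO, whereas in PSC TNFRSF1A had 7.7 ± 0.693 FPKM and TNFRSF1B 13.9 ± 0.898 FPKM (mean ± SD, n = 2). The order of these receptors thus differed between PSC and LPO, a description with no test. In bulk RNA, fewer cells that express a gene and less RNA per cell cannot be told apart.

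Proteins of the receptor complex mostly rose at the last step. Of 12 genes, 8 were higher and 2 lower in LPO than in AFE, and 10 were higher and none lower in LPO than in PSC (edgeR quasi-likelihood test over all genes). That is 66.7% higher against AFE and 83.3% against PSC, beside 30.2% and 41.5% of all genes. TNFAIP3 encodes A20, a deubiquitinase that ends signalling at the receptor and is itself a classic NF-kB target. It had 53.7 and 57.5 CPM in LPO, against 2.17 and 2.03 CPM in AFE, a 26.4-fold difference (log2 4.72, SE 0.322, adjusted p = 7.0e-06). DE had 4.15 and 2.07 CPM and PSC 6.82 and 5.32 CPM, so LPO stood apart from every other stage. BIRC3, the ubiquitin ligase cIAP2 and another NF-kB target, had 96.7 and 92.8 CPM in LPO, against 17.3 and 17 CPM in AFE (5.53-fold, adjusted p = 1.4e-06). BIRC2, the gene of its relative cIAP1 beside it on chromosome 9, was higher as well, by 1.56-fold (47.3 and 50.1 CPM in LPO, against 30 and 32.4 CPM in AFE, adjusted p = 0.00165). DAB2IP, a scaffold that carries signals from TNFR1 to ASK1, had 42.9 and 45.4 CPM in LPO, against 8.93 and 8.84 CPM in AFE (4.97-fold, adjusted p = 2.5e-06).

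The adaptors TRADD and RIPK1 moved less at that step. TRADD had 8.83 and 8.76 CPM in PSC, 43.6 and 44.7 CPM in DE, 32.2 and 32.9 CPM in AFE and 36.6 and 37.3 CPM in LPO. Its rise thus lay at the first step, 5.02-fold in DE against PSC (log2 2.33, SE 0.0952, adjusted p = 1.0e-06). LPO against AFE was not called (adjusted p = 0.109), though it was with the DESeq2 Wald test (0.0333). FBXL8 overlaps TRADD on the opposite strand with over 10% of its count, and its level is uncertain to that extent. RIPK1 had 63.3 and 68.2 CPM in LPO, against 37.2 and 43.5 CPM in AFE (1.63-fold, adjusted p = 8.1e-04). TRAF1, an adaptor that binds TNFR2, was highest in AFE: 3.44 and 2.07 CPM, against 0.208 and 0.28 CPM in DE (11.2-fold higher, adjusted p = 0.00206). Its 3.35-fold fall in LPO against AFE (0.873 and 0.768 CPM in LPO, adjusted p = 0.0177) was lost without AFE replicate 1 (0.132), LPO replicate 1 (0.0839) or LPO replicate 2 (0.107).

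The TAK1 partners split. TAB1, which activates TAK1 by binding it, had 35.2 and 30.9 CPM in PSC, 130 and 123 CPM in DE, 150 and 155 CPM in AFE and 70.6 and 72 CPM in LPO. TAB2 and TAB3, which tether TAK1 to ubiquitin chains, were level over the early stages and high in LPO. TAB2 had 124 and 119 CPM in LPO, against 37.4 and 38 CPM in AFE (3.22-fold, adjusted p = 2.5e-06), and TAB3 had 44.8 and 38.3 CPM, against 11.4 and 8.45 CPM (4.18-fold, adjusted p = 7.3e-05). TAB1 was 2.14-fold lower in LPO than in AFE (adjusted p = 1.4e-05). TRAF5 was 2.87-fold higher in LPO than in AFE (8.19 and 8.57 CPM, against 2.61 and 3.23 CPM, adjusted p = 8.9e-04). BAG4, a chaperone said to keep TNFR1 silent, did not pass the test among the stages (adjusted p = 0.401), with 20.5 to 27.3 CPM in the 8 libraries.

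**Figure D3:**
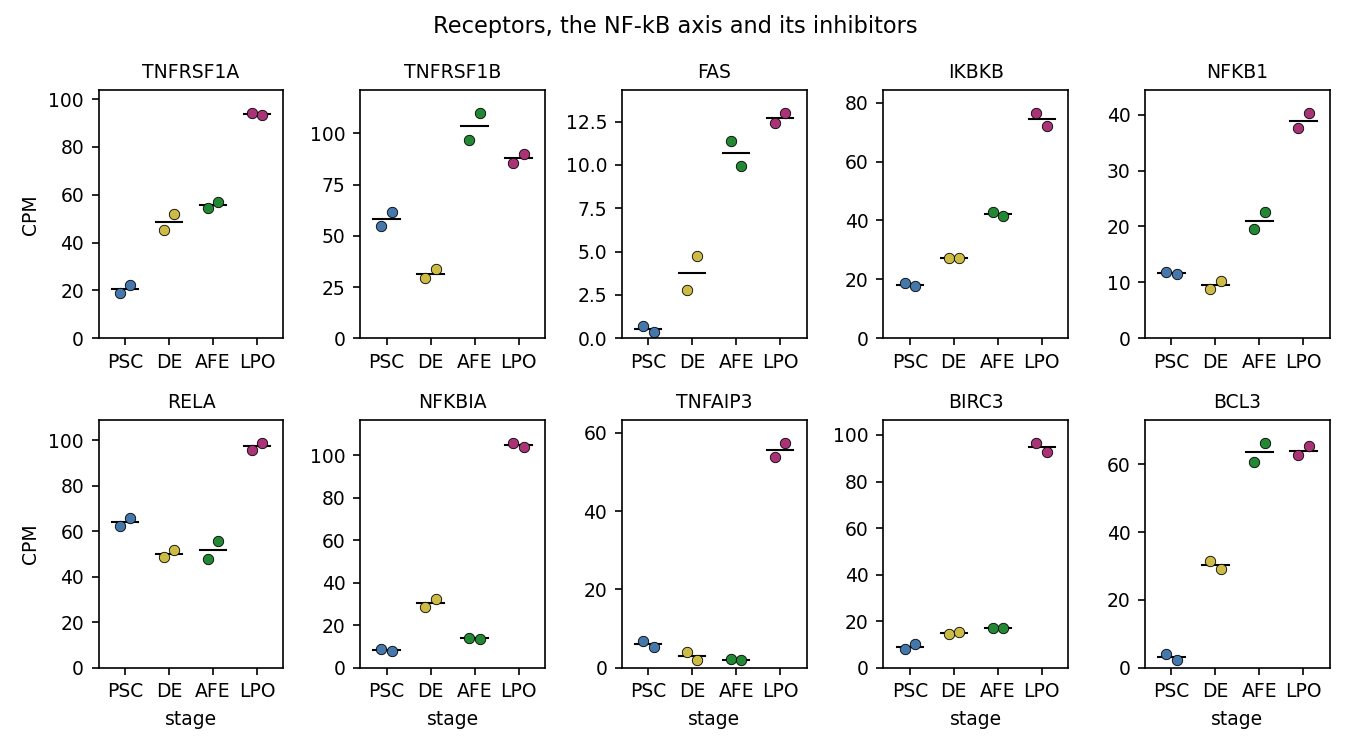
CPM (linear axis from 0) of the 3 receptors, the kinase IKBKB, the factors NFKB1 and RELA, and the feedback genes NFKBIA, TNFAIP3, BIRC3 and BCL3 by stage, with a point per library and a bar at the mean. TNFAIP3 sits at 53.7 and 57.5 in LPO and at 6.82 or less in every other library, whereas BCL3 is as high in AFE as in LPO.

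The genes of the IKK complex, which frees NF-kB, were called higher in LPO than in PSC, but only IKBKB was called higher at each step. IKBKB, the catalytic subunit of the canonical route, had 18.7 and 17.6 CPM in PSC, 27.3 and 27.2 CPM in DE, 42.9 and 41.4 CPM in AFE and 76.5 and 72.2 CPM in LPO. It was called higher at each of the 3 steps, by 1.5-fold, 1.55-fold and 1.76-fold (adjusted p = 8.0e-04, 0.00106 and 7.8e-05). The regulatory subunit IKBKG (NEMO) rose mainly in the first step: 38.2 and 37.3 CPM in DE, against 11.4 and 9.6 CPM in PSC (3.59-fold, adjusted p = 5.9e-06). It shares its locus with another gene, so its level is uncertain. CHUK, the subunit IKK-alpha, did not rise steadily. Its log2 change was 2.57 in DE against PSC and -1.77 in AFE against DE. Neither was called (edgeR quasi-likelihood test, adjusted p = 0.0851 and 0.228), though both were with counts divided by 4 (0.0168 and 0.043). CHUK had 5.49 and 6.87 CPM in LPO, against 0.539 and 1.12 CPM in AFE (7.45-fold, adjusted p = 0.0465). That call was lost on leaving out any LPO or AFE library (0.104 to 0.202) or any DE library (0.06 and 0.0543) and with median centring (0.0541), and the spread in PSC was wide, with 0.918 and 0 CPM. MAP3K14, the kinase NIK of the non-canonical route, had 9.55 and 8.53 CPM in PSC, 10.1 and 9.95 CPM in DE, 17.6 and 19.6 CPM in AFE and 32.9 and 36 CPM in LPO. It was 1.85-fold higher both in AFE than in DE (adjusted p = 0.00131) and in LPO than in AFE (adjusted p = 4.3e-04).

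The NF-kB subunits were higher in LPO than in AFE by smaller factors than the inhibitor NFKBIA. RELA (p65) had 62.2 and 66 CPM in PSC, 48.6 and 51.9 CPM in DE, 47.7 and 55.6 CPM in AFE and 95.9 and 99 CPM in LPO. It was 1.89-fold higher in LPO than in AFE (log2 0.92, SE 0.0964, adjusted p = 7.9e-05). Its 1.52-fold rise in LPO against PSC (adjusted p = 7.0e-04) was lost with median centring (log2 0.09, adjusted p = 0.473). NFKB1, the gene of p105 and p50, had 11.8 and 11.5 CPM in PSC, 8.85 and 10.2 CPM in DE, 19.5 and 22.6 CPM in AFE and 37.6 and 40.3 CPM in LPO. It was 1.85-fold higher in LPO than in AFE (adjusted p = 5.1e-04) and 2.22-fold higher in AFE than in DE (adjusted p = 4.3e-04). NFKBIA encodes IkB-alpha, which holds NF-kB in the cytoplasm and is remade by it. It had 106 and 104 CPM in LPO, against 14.1 and 13.7 CPM in AFE (7.55-fold; log2 2.92, SE 0.103, adjusted p = 4.1e-07). In DE it had 28.6 and 32.3 CPM, against 8.73 and 8.14 CPM in PSC (3.6-fold, adjusted p = 3.9e-06), so NFKBIA rose, fell and rose again along the steps. BCL3, an IkB-like co-activator of p50 and p52, took another course: 4.22 and 2.29 CPM in PSC, 31.4 and 29.2 CPM in DE, 60.8 and 66.4 CPM in AFE and 62.6 and 65.4 CPM in LPO. It rose 9.22-fold in DE (adjusted p = 1.5e-05) and 2.1-fold in AFE (adjusted p = 0.00464), and AFE and LPO overlapped. Of the 28 pathway genes that also carry the KEGG NF-kappa B entry, 27 were tested, and 22 were higher and 2 lower in LPO than in AFE. Against PSC, 26 of those 27 were higher and none lower. The shares against AFE were 81.5% higher and 7.41% lower, beside 30.2% and 29.6% of all genes. Against PSC 96.3% were higher, where 41.5% of all genes were higher and 28.8% lower.

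The death branch was mixed. Of 10 genes, 7 were higher and 2 lower in LPO than in AFE, with the same counts against PSC. That is 70% higher and 20% lower, where 30.2% and 29.6% of all genes were called against AFE and 41.5% and 28.8% against PSC. Caspase-8 (CASP8), the initiator of receptor-driven apoptosis, had 0 CPM in both PSC libraries, 0.968 and 0.491 CPM in DE, 3.85 and 1.77 CPM in AFE and 10.2 and 10.7 CPM in LPO. It was at least 31.9-fold higher in LPO than in PSC (adjusted p = 5.4e-05) and 3.71-fold higher than in AFE (adjusted p = 0.0133). The second of these calls was lost without AFE replicate 2 (0.0624), LPO replicate 1 (0.0525) or LPO replicate 2 (0.0627), and without AFE replicate 1 its log2 change was 2.56 in place of 1.89. CASP10, its neighbour on chromosome 15, had 13.9 and 12.6 CPM in LPO, against 0.653 and 1.13 CPM in AFE (14.8-fold, adjusted p = 1.1e-04). FADD, the adaptor that brings caspase-8 to the receptor, ran the other way. It had 20.3 and 25.6 CPM in LPO, against 73.8 and 81.7 CPM in AFE (3.39-fold lower; log2 -1.76, SE 0.19, adjusted p = 9.2e-05), and 62.5 and 91.2 CPM in DE, against 29.3 and 27.5 CPM in PSC (2.7-fold higher, adjusted p = 3.9e-04). CFLAR, the inhibitor c-FLIP, from the same chromosome 15 cluster, had 13.7 and 14.5 CPM in LPO, against 7.9 and 8.9 CPM in AFE (1.68-fold, adjusted p = 0.0132). That p was 0.0827 without AFE replicate 1, and 0.0512 and 0.0793 without LPO replicate 1 or 2.

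For necroptosis, MLKL, the pore-forming end of the route, had 12.2 and 11.7 CPM in LPO, against 3.17 and 1.98 CPM in AFE (4.65-fold, adjusted p = 2.9e-04). Its activator RIPK3 stayed low, with 2.34 and 2.66 CPM in LPO, against 0.261 and 0.6 CPM in AFE (5.78-fold; log2 2.53, adjusted p = 0.00552), and a log2 change of 3.25 without AFE replicate 2. The mitochondrial phosphatase PGAM5 was 2.66-fold lower in LPO than in AFE (36.6 and 39.9 CPM, against 99.3 and 104 CPM, adjusted p = 9.0e-06), although PXMP2, which overlaps it on the same strand, has over 10% of its count. The fission enzyme DNM1L was highest in PSC, with 172 and 164 CPM there and 84.4 to 104 CPM in the other stages. It was 1.64-fold lower in DE than in PSC (adjusted p = 7.9e-05).

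More kinase genes were called higher at the first step than at the others. Of 30 kinase genes and their subunits, 19 were higher and 4 lower in DE than in PSC, 7 higher and 9 lower in AFE than in DE, and 15 higher and 6 lower in LPO than in AFE. The shares higher were 63.3%, 23.3% and 50%, beside 30.8%, 17.9% and 30.2% of all genes, and the share at the AFE step was near the background. The shares lower were 13.3%, 30% and 20%, beside 23%, 17.4% and 29.6%. Their summed level was 810 and 704 CPM in PSC, 1347 and 1331 CPM in DE, 1239 and 1263 CPM in AFE and 1358 and 1376 CPM in LPO. The sums in the 3 differentiated stages lay close together, while single kinases went in opposite directions.

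The p38 genes of LPO were a case of that. MAPK14 (p38-alpha, the broadly expressed form) had 87.5 and 89.8 CPM in LPO, against 58 and 60 CPM in AFE (1.5-fold higher, adjusted p = 1.8e-04). MAPK12 (p38-gamma) had 24 and 26.4 CPM in LPO, against 81.1 and 77.6 CPM in AFE (3.14-fold lower, adjusted p = 1.0e-05). MAPK13 (p38-delta), next to MAPK14 on chromosome 7, had 16.9 and 18.4 CPM in LPO, against 59.3 and 61.4 CPM in AFE (3.42-fold lower, adjusted p = 2.6e-05). Of the kinases upstream of p38, MAP2K3 and MAP2K6 were lower as well: MAP2K3 by 2.51-fold (33.1 and 29.7 CPM in LPO, against 81.1 and 76.2 CPM in AFE, adjusted p = 1.7e-05) and MAP2K6 by 2.63-fold (3.01 and 4.96 CPM, against 11 and 9.97 CPM, adjusted p = 0.00194). Per length, MAPK14 had 21.3 ± 0.318 FPKM and MAPK12 18.4 ± 1.19 FPKM in LPO, where in AFE MAPK14 had 10 ± 0.205 FPKM and MAPK12 41.1 ± 1.39 FPKM (mean ± SD, n = 2). MAP2K3, MAPK12 and MAPK13 had been higher in DE than in PSC, by 1.92-fold, 1.64-fold and 1.86-fold (adjusted p = 1.6e-04, 0.00134 and 0.00144).

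TAK1 itself (MAP3K7) changed little, with 31.9 CPM in its lowest library, in AFE, and 51.8 CPM in its highest, in DE. It was 1.45-fold higher in LPO than in AFE (47.9 and 49 CPM, against 31.9 and 34.9 CPM, adjusted p = 0.00102). ASK1 (MAP3K5), the stress-activated kinase upstream of JNK and p38, had 1.34 and 0.802 CPM in PSC, 3.84 and 3.5 CPM in DE, 4.57 and 5.92 CPM in AFE and 8.33 and 7.73 CPM in LPO. It was 3.4-fold higher in DE than in PSC (adjusted p = 0.00213), and LPO against AFE was not called (0.106), except with only the libraries compared (0.0301) or without 1 of the PSC libraries (0.0448 and 0.0444). TPL2 (MAP3K8), which links TNF receptors to ERK, had 14.6 and 13.9 CPM in LPO, against 4.49 and 3.92 CPM in AFE (3.39-fold, adjusted p = 0.033). It lost that call without any of those 4 libraries (0.114 to 0.147), though the stages did not overlap. Of the JNK genes, MAPK8 (JNK1) had 35.1 and 35.4 CPM in LPO, against 52.6 and 44.2 CPM in AFE (1.37-fold lower, adjusted p = 0.00708). It was not called without AFE replicate 1 (0.0667) and had no fall on the FPKM scale (log2 0.03, adjusted p = 0.783). MAPK9 (JNK2) had 47.3 and 44.6 CPM in LPO, against 36.8 and 36.7 CPM in AFE (1.25-fold higher, adjusted p = 0.0202), a call lost with median centring (0.171) and without any of those 4 libraries (0.0726 to 0.158). MAPK3 (ERK1) rose 3.96-fold in DE against PSC (134 and 130 CPM, against 34.2 and 32.4 CPM, adjusted p = 1.1e-06) and then stayed at 111 to 134 CPM.

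The PI3K genes changed by large factors at single steps. PIK3R1, the regulatory subunit p85-alpha, had 3.7 and 3.12 CPM in PSC, 64.5 and 69.8 CPM in DE, 45.1 and 41.6 CPM in AFE and 158 and 156 CPM in LPO. It was 19.6-fold higher in DE than in PSC (log2 4.3, SE 0.115, adjusted p = 1.9e-07) and 3.61-fold higher in LPO than in AFE (log2 1.85, SE 0.0967, adjusted p = 1.9e-06). Its paralogue PIK3R2 (p85-beta) peaked in AFE at 189 and 199 CPM and was 2.15-fold lower in LPO (87.1 and 93.3 CPM, adjusted p = 6.2e-05). The catalytic subunit PIK3CB stood out in DE alone, with 65.1 and 55.1 CPM there and 9.33 to 12.8 CPM in the 6 libraries of the other stages. It was 5.74-fold higher in DE than in PSC (adjusted p = 1.1e-05) and 5.23-fold lower in AFE than in DE (adjusted p = 3.9e-05). PIK3CA was 3.12-fold higher in LPO than in AFE (21 and 20.2 CPM, against 6.82 and 6.39 CPM, adjusted p = 9.3e-05). RPS6KA4 (MSK2), a kinase that phosphorylates CREB and histone H3, rose 6.05-fold in DE against PSC (24.9 and 24.8 CPM, against 4.79 and 3.39 CPM, adjusted p = 1.3e-05).

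**Figure D4:**
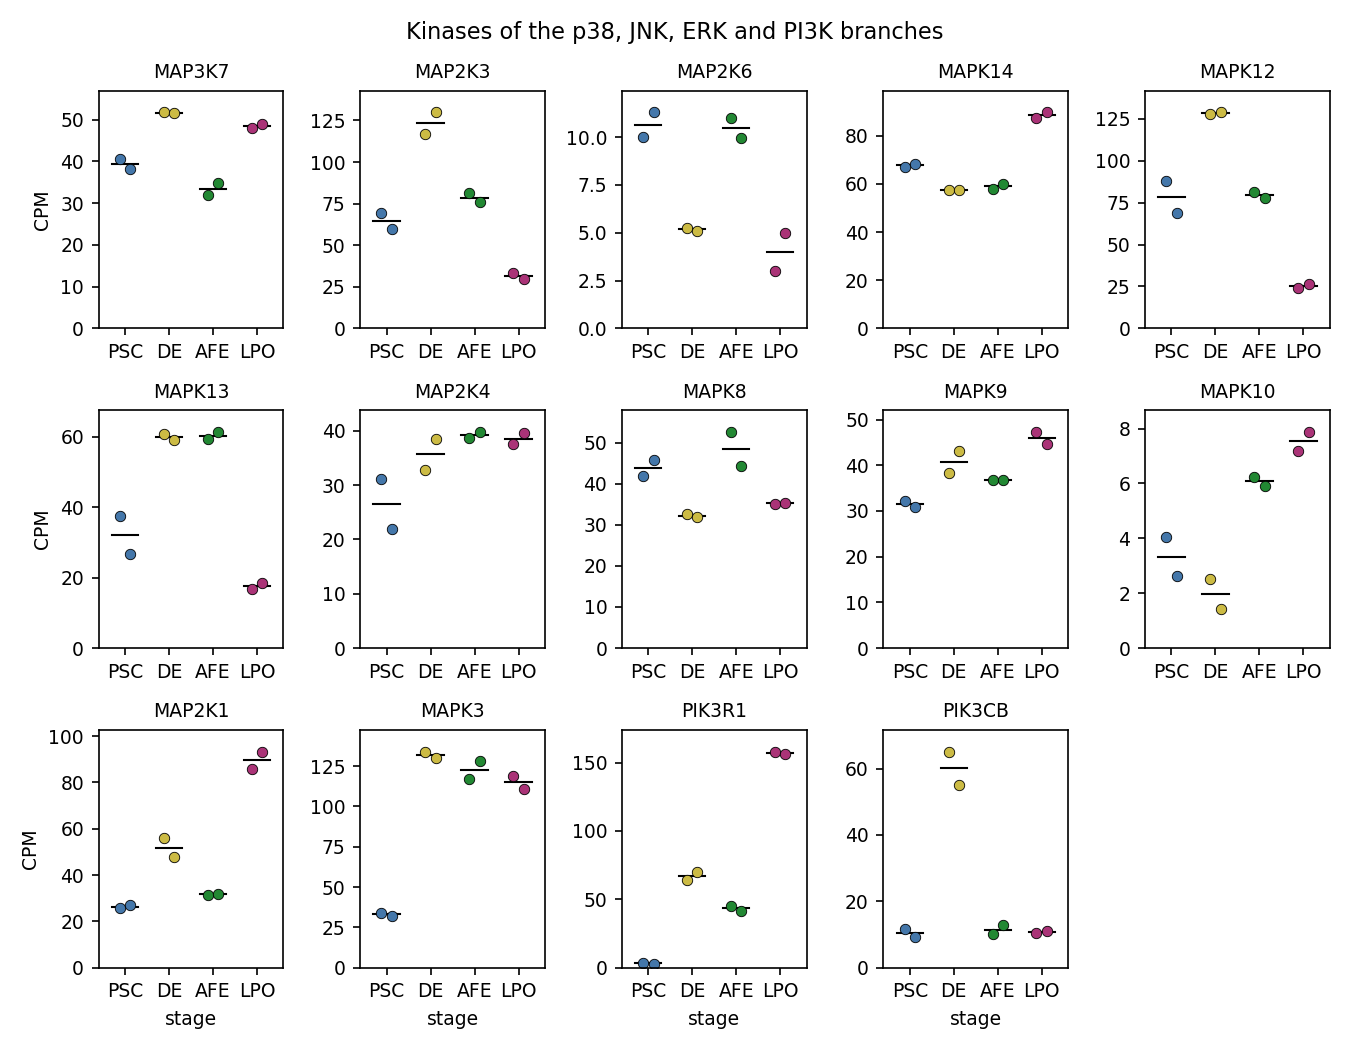
CPM (linear axes from 0, each with its own range) of 14 kinase genes by stage, with a point per library and a bar at the mean. MAP2K3, MAPK12 and MAPK13 are lowest in LPO while MAPK14 and PIK3R1 are highest there, and PIK3CB is high in DE only.

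The AP-1 factors changed by large factors between stages. Of 20 transcription factors and inhibitors, 11 were higher and 2 lower in LPO than in AFE, and 15 were higher and 4 lower in LPO than in PSC. That is 55% higher and 10% lower against AFE, beside 30.2% and 29.6% of all genes, and 75% higher and 20% lower against PSC, beside 41.5% and 28.8%. JUN had 3.17 and 6.36 CPM in PSC, 43.7 and 26.7 CPM in DE, 43.7 and 49.2 CPM in AFE and 340 and 369 CPM in LPO. LPO was 7.64-fold above AFE (log2 2.93, SE 0.302, adjusted p = 6.9e-05), and DE was 7.47-fold above PSC (log2 2.9, SE 0.33, adjusted p = 1.6e-04). JUNB had 113 and 122 CPM in LPO, against 7.7 and 6.5 CPM in AFE (16.5-fold; log2 4.05, SE 0.232, adjusted p = 2.9e-06). FOS, the partner of JUN in AP-1, was highest in PSC, with 82 and 97.1 CPM there, 9.17 and 5.22 CPM in DE, 2.38 and 5.54 CPM in AFE and 43.2 and 42.4 CPM in LPO. It was 12.4-fold lower in DE than in PSC (adjusted p = 1.2e-04) and 10.8-fold higher in LPO than in AFE (log2 3.43, adjusted p = 1.3e-04), with a log2 change of 4.16 without AFE replicate 2. FOS and JUN thus moved together into LPO and apart into DE.

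Most of the listed genes that respond to cell dissociation and stress rose beside AP-1 at the last step. Of 9 such genes tested 7 were higher and 1 lower in LPO than in AFE, beside 30.2% and 29.6% of all genes. Their sum was 1316 and 1386 CPM in PSC, 1084 and 1179 CPM in DE, 753 and 765 CPM in AFE and 2249 and 2252 CPM in LPO. EGR1, an immediate early gene, had 116 and 107 CPM in LPO, against 3.98 and 6.05 CPM in AFE, and HSPA5, a chaperone that makes up most of the sum, had 1754 and 1760 CPM, against 494 and 496 CPM. IER2 was the 1 lower (66 and 68.3 CPM in LPO, against 90.4 and 90.9 CPM in AFE), and HSPH1 was not called. The part of these stress genes in the AP-1 result was not tested.

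The CREB and ATF relatives did not move as a block. CREB3L2, a membrane-bound factor of the secretory pathway, rose at each step: 6.05 and 7.01 CPM in PSC, 37.1 and 37.7 CPM in DE, 82.9 and 90.9 CPM in AFE and 189 and 197 CPM in LPO (5.74-fold, 2.32-fold and 2.22-fold, adjusted p = 9.5e-07, 5.0e-05 and 1.5e-05). CREB3L1, its closest relative, had 0 and 1.54 CPM in PSC, 11.9 and 10.4 CPM in DE, 66.9 and 66.5 CPM in AFE and 103 and 105 CPM in LPO. It was called in DE against PSC (adjusted p = 0.00203) and in AFE against DE (5.97-fold, adjusted p = 0.00685), and neither call was made by the DESeq2 Wald test (0.0573 and 0.249). In DE against PSC its log2 change was 3.95, and 2.86 without PSC replicate 1. ATF2, the JNK and p38 target, was 3.13-fold higher in LPO than in AFE (71 and 68.5 CPM, against 22.2 and 22.4 CPM, adjusted p = 5.9e-06). CREB5 was 26-fold higher (13 and 12 CPM in LPO, against 0.588 and 0.367 CPM in AFE, adjusted p = 0.00177), and CREB1 was 4.09-fold higher (20.3 and 20.7 CPM, against 4.47 and 5.55 CPM, adjusted p = 2.2e-05). ATF6B was 2.52-fold higher in AFE than in DE (76.6 and 79.3 CPM, against 24.7 and 37.2 CPM, adjusted p = 0.00194). CREB3 and CREB3L4 ran against these. CREB3L4 had 6.52 and 3.83 CPM in LPO, against 12.2 and 11.9 CPM in AFE (2.33-fold lower, adjusted p = 0.00404). CREB3 had 68.8 and 69.8 CPM, against 111 and 107 CPM (1.57-fold lower, adjusted p = 1.4e-04), but TLN1 and GBA2 overlap it on the opposite strand with larger counts, and with limma on log2(FPKM + 1) its call was lost (0.0855). ATF4, the main factor of the integrated stress response, was highest in PSC (642 and 727 CPM) and lay between 418 and 497 CPM elsewhere. It was 1.5-fold lower in DE than in PSC (adjusted p = 0.00111).

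The remaining factors rose early. SOCS3, the feedback inhibitor of cytokine receptor signalling, had 1.34 and 0.98 CPM in PSC, 27.7 and 22.2 CPM in DE, 12.7 and 16.4 CPM in AFE and 68.1 and 71.5 CPM in LPO. It was 21.3-fold higher in DE than in PSC (log2 4.41, SE 0.222, adjusted p = 2.6e-06) and 4.8-fold higher in LPO than in AFE (log2 2.26, SE 0.179, adjusted p = 1.6e-05). CEBPB, a partner of NF-kB at inflammatory promoters, was 3.21-fold higher in DE than in PSC (12.2 and 12.6 CPM, against 3.99 and 3.71 CPM, adjusted p = 1.5e-04), and LPO overlapped AFE (16.3 and 20 CPM, against 23 and 17.6 CPM). IRF1 had 21 and 22.1 CPM in DE, against 10.6 and 2.88 CPM in PSC (3.17-fold, adjusted p = 0.0172). Its PSC libraries lay far apart: the log2 change of 1.66 was 2.91 without the higher library, replicate 1, and 1.02 without replicate 2. The call was lost without DE replicate 1 (0.0537) or DE replicate 2 (0.0639), and RAD50 overlaps IRF1 on the opposite strand with a larger count.

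The chemokines, which attract leukocytes, had the largest median change of the 9 roles in LPO against AFE, a log2 of 5.11 beside 0.09 over all genes. All 7 were higher in LPO than in AFE and in LPO than in PSC. Their sum was 0.0992 and 0.475 CPM in PSC, 23.6 and 18.9 CPM in DE, 4.8 and 6.67 CPM in AFE and 185 and 191 CPM in LPO. Most of the LPO sum was CCL2 (MCP-1), the monocyte attractant, on chromosome 12 from 40798109 to 40800026. It had 0 CPM in both PSC libraries, 0.553 and 0.894 CPM in DE, 2.99 and 1.68 CPM in AFE and 106 and 108 CPM in LPO. CCL2 was 45.6-fold higher in LPO than in AFE (log2 5.51, SE 0.303, adjusted p = 6.6e-06) and at least 326-fold higher than in PSC (adjusted p = 1.3e-06). Per length it was among the most abundant pathway genes of LPO at 170 ± 1.48 FPKM, where ATF4 had 296 ± 1.18 FPKM, JUN 227 ± 12.4 FPKM and NFKBIA 71.5 ± 1.34 FPKM (mean ± SD, n = 2).

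AMCF-II, the unnamed gene and CXCL2 lie within 1 stretch of chromosome 8 (70008162 to 70159138), with CXCL10 farther along, and such close relatives may share reads. CXCL10, the interferon-inducible attractant of T cells, had 0 CPM in PSC and DE, 0.131 and 0.233 CPM in AFE and 9.63 and 10.7 CPM in LPO. It was 55.2-fold higher in LPO than in AFE (log2 5.79, SE 0.496, adjusted p = 1.5e-04). AMCF-II, a pig neutrophil attractant, had 30.1 and 31.3 CPM in LPO, against 0.571 and 1.17 CPM in AFE (35.2-fold; log2 5.14, adjusted p = 2.3e-05; log2 5.74 without AFE replicate 2). CXCL2, another neutrophil attractant, had 19.7 and 19.6 CPM in LPO, against 0.8 and 2.27 CPM in AFE (12.8-fold; log2 3.68, SE 0.492, adjusted p = 5.8e-04), with a log2 change of 4.62 without AFE replicate 2. These genes did not share 1 course. The unnamed gene ENSSSCG00000060276, at 70054890 to 70057030, had 0 and 0.475 CPM in PSC, 18.2 and 14.1 CPM in DE, 0.212 and 0.617 CPM in AFE and 10.9 and 11.5 CPM in LPO, so it alone of the 7 was highest in DE. It was 72-fold higher in DE than in PSC (adjusted p = 5.4e-04), 38.8-fold lower in AFE than in DE (adjusted p = 0.00145) and 26.9-fold higher in LPO than in AFE (adjusted p = 8.9e-04). The sizes of these changes rest on few counts: the log2 changes of 6.17, -5.28 and 4.75 were 5.08 without PSC replicate 1, and -6.23 and 5.71 without AFE replicate 2. AMCF-II, with 3.58 and 2.68 CPM in DE, also fell in AFE (3.6-fold, adjusted p = 0.00978, and 0.0595 without AFE replicate 1).

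CCL5 and CCL20 exceeded 0.5 CPM in the LPO libraries only. CCL5 (RANTES) had 4.54 and 4.91 CPM in LPO and 0 and 0.5 CPM in AFE, and CCL20, the attractant of CCR6-bearing cells, had 4.86 and 5.56 CPM in LPO and 0.0979 and 0.2 CPM in AFE. Both were 0 in PSC, and they were at least 14.4-fold and 15.9-fold higher in LPO than in PSC (adjusted p = 0.0105 and 0.00317), where the DESeq2 Wald test did not call CCL5 (0.0586). Against AFE both calls were fragile. CCL5 had an adjusted p of 0.0471, which became 0.433 with the DESeq2 Wald test, 0.0535 with median centring, 0.133 without LPO replicate 1 and 0.148 without LPO replicate 2. Its log2 change of 4.23 was 3.24 without AFE replicate 1. CCL20 had an adjusted p of 0.0117, which became 0.0762 without AFE replicate 1, 0.0535 without AFE replicate 2 and 0.0548 without LPO replicate 2.

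**Figure D5:**
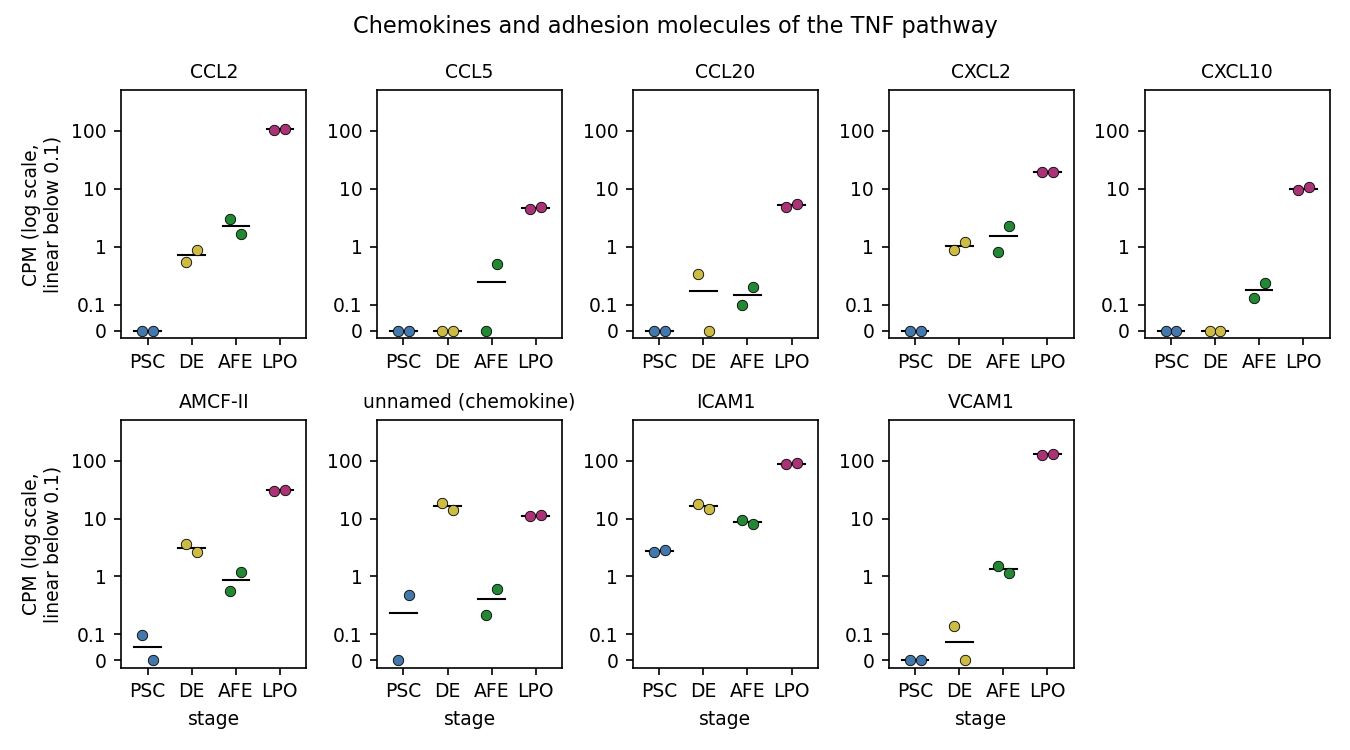
CPM of the 7 chemokines, ICAM1 and VCAM1 by stage, with a point per library and a bar at the mean, on a log axis that is linear below 0.1. All 9 genes are above 4 CPM in both LPO libraries, and only the unnamed chemokine and ICAM1 exceed 10 CPM in DE.

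The adhesion molecules VCAM1 and ICAM1 rose with the chemokines at the last step. VCAM1, which binds leukocyte integrins and is also made by stroma, lies on chromosome 4 from 117496920 to 117511222. It had 0 CPM in both PSC libraries, 0.138 and 0 CPM in DE, 1.5 and 1.15 CPM in AFE and 127 and 132 CPM in LPO. The rise in LPO was 97.8-fold over AFE (log2 6.61, SE 0.334, adjusted p = 4.5e-06) and at least 397-fold over PSC (adjusted p = 1.4e-06). ICAM1, the ligand of leukocyte LFA-1, had 2.65 and 2.82 CPM in PSC, 17.9 and 14.8 CPM in DE, 9.24 and 8 CPM in AFE and 86.2 and 90.4 CPM in LPO. It was 10.2-fold higher in LPO than in AFE (log2 3.36, SE 0.139, adjusted p = 6.7e-07), 1.89-fold lower in AFE than in DE (adjusted p = 0.00126) and 5.97-fold higher in DE than in PSC (adjusted p = 4.5e-06). E-selectin (SELE), an endothelial adhesion molecule, had 0.101 CPM in 1 LPO library and 0 CPM in the other 7. MMP3 had 0.0653 CPM in 1 AFE library and 0 CPM elsewhere.

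Prostaglandin synthase PTGS2 (COX-2) had 7.58 and 7.24 CPM in LPO, against 1.96 and 1.45 CPM in AFE (4.34-fold, adjusted p = 0.0128). That p was 0.0816 without AFE replicate 2 and 0.0545 without LPO replicate 1. The bacterial sensor NOD2 was lowest in DE, with 1.59 and 1.23 CPM, against 4.12 and 6.71 CPM in PSC (3.83-fold lower, adjusted p = 0.00194), and SNX20 overlaps it on the opposite strand with over 10% of its count.

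The inflammatory cytokines IL1B, IL6, CSF2 and IL15 were scarce. Of 9 tested cytokines, growth factors and their receptor IL18R1, 5 were higher and 1 lower in LPO than in AFE (55.6% and 11.1%, beside 30.2% and 29.6% of all genes), most at low levels. IL1B had 0.392 and 0.133 CPM in AFE and 0 CPM in the other 6 libraries. IL6 had 1.43 and 1.36 CPM in LPO and at most 1.12 CPM elsewhere, and it was not called among the stages (adjusted p = 0.234). CSF2 had at most 0.399 CPM and IL15 at most 0.201 CPM in any library. IL15 was still among the 5 called higher in LPO than in AFE (edgeR quasi-likelihood test, adjusted p = 0.0443). That call was lost under 10 alternatives, among them the DESeq2 Wald test (0.287) and edgeR with no filter on low counts (0.168). Among the growth factors, CSF1, the macrophage growth factor, had 1.12 and 0.119 CPM in PSC, 1.73 and 4.61 CPM in DE, 9.27 and 10.6 CPM in AFE and 17.5 and 20.2 CPM in LPO. It was 29.3-fold higher in LPO than in PSC (adjusted p = 6.1e-04), with a log2 change of 4.87 that was 7.29 and 4.07 without PSC replicate 1 or 2. LIF had 7.15 and 5.69 CPM in LPO, against 1.81 and 1.97 CPM in AFE (3.39-fold, adjusted p = 0.00642, and 0.0516 without LPO replicate 1). IL18R1, the receptor of IL-18, had 12.8 and 15 CPM in LPO, against 0.996 and 1.55 CPM in AFE (10.9-fold, adjusted p = 3.6e-05). Endothelin-1 (EDN1) had 5.42 and 4.93 CPM in LPO and 0 CPM in PSC (at least 15.8-fold higher, adjusted p = 1.9e-04). In LPO against AFE its log2 change was 2.13 (edgeR quasi-likelihood test, adjusted p = 0.0212). It was 1.74 without AFE replicate 2, 2.04 without LPO replicate 1 and 2.17 without LPO replicate 2, and none of these fits kept the call. VEGFC, the lymphatic growth factor, ran against the group: 14.5 and 16.9 CPM in PSC, 6.66 and 13.5 CPM in DE, 4.86 and 5.35 CPM in AFE and 2.56 and 2.48 CPM in LPO. It was 6.24-fold lower in LPO than in PSC (adjusted p = 1.7e-04).

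The 97 genes followed 22 different courses when each of the 3 steps was scored as higher, lower or not called. The most frequent were a rise at the last step alone (15 genes, among them CASP10, PIK3CA and TAB3), a rise, a fall and a rise (13 genes, among them NFKBIA, ICAM1, JUNB, DAB2IP, PIK3R1 and the unnamed chemokine), and a rise at the first and last steps (11 genes, among them TNFRSF1A, BIRC3, CXCL2, JUN and RIPK1). These counts are a description, as the share of all genes tested on each course was not counted. Of the 15 genes, IL15, CHUK, CCL5, CCL20, PTGS2 and LIF lost their last-step call under some alternatives. Of the 11 genes, CFLAR, EDN1, IKBKG and MAPK9 were among those that did. CASP8, CCL2, CREB3L2 and IKBKB were called higher at all 3 steps. The AFE call of CCL2 (adjusted p = 0.00818) was lost without DE replicate 1 (0.0531), and that of CASP8 (0.0253) without DE replicate 2 (0.114), AFE replicate 1 (0.131) or either LPO library (0.054 and 0.0567). A further 5 genes were lower in DE than in PSC and higher in LPO than in AFE, namely FOS, RELA, TNFAIP3, MAPK14 and PIK3R3. All but FOS lost the DE call without some libraries. RELA (adjusted p = 0.0163) had 0.0608 without PSC replicate 2 and 0.0854 without DE replicate 1. TNFAIP3 (0.0258) had 0.119 without PSC replicate 1 and 0.0542 without DE replicate 2. MAPK14 (0.0249) had 0.0559 to 0.0705 on leaving out any DE or AFE library or PSC replicate 2, and PIK3R3 (0.047) had 0.206 without PSC replicate 1 and 0.218 without DE replicate 1.

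Genes of the same system outside the KEGG entry were counted as well. Of 26 tested genes of the NF-kB machinery, 14 were higher and 7 lower in LPO than in AFE, with a median log2 change of 0.75, beside 0.09 over all genes. That is 53.8% higher and 26.9% lower, beside 30.2% and 29.6% of all genes. NFKBIZ, an inducible nuclear IkB, had 25.9 and 25.3 CPM in LPO, against 0.947 and 0.9 CPM in AFE (27.6-fold, adjusted p = 3.1e-06). ADAM17, the protease that sheds TNF and its receptors, was 2.48-fold higher (89.2 and 84.6 CPM, against 36.6 and 33.6 CPM, adjusted p = 9.9e-06). SHARPIN, a subunit of the ligase that builds linear ubiquitin chains, was 5.88-fold lower (15.7 and 17.8 CPM, against 102 and 94.5 CPM, adjusted p = 8.4e-07).

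Of 18 tested receptors of the TNF superfamily outside the entry, 6 were higher and 5 lower in LPO than in AFE (median log2 change 0.26). These shares, 33.3% and 27.8%, are near the background of 30.2% and 29.6% of all genes. TNFRSF11B, the decoy receptor osteoprotegerin, had 19.4 and 18.9 CPM in LPO, against 0.131 and 0.3 CPM in AFE (88.2-fold; log2 6.46, adjusted p = 1.7e-05; log2 7.17 without AFE replicate 2). TNFRSF19 was 2.28-fold higher (56.5 and 58.4 CPM, against 25.2 and 25.2 CPM, adjusted p = 3.1e-05), and TNFRSF21 was 2.17-fold lower (24.9 and 24.7 CPM, against 54.4 and 53 CPM, adjusted p = 1.5e-05). Without LPO replicate 1 the counts were 3 higher and 3 lower, and without AFE replicate 2 there were 3 lower. Of 13 tested ligands of the superfamily, 7 were higher and 2 lower (53.8% and 15.4%, median log2 change 1.28), with 4 higher without LPO replicate 1 or 2. TNFSF11, the osteoclast factor RANKL, was at over 50 CPM in PSC and near 0 elsewhere, with 52.8 and 52.3 CPM there, and 0.242 and 0.245 CPM in DE, 0 CPM in AFE and 0.823 and 0.692 CPM in LPO. TNFSF9 was 3.05-fold higher in LPO than in AFE (37.9 and 34.4 CPM, against 11.8 and 11.9 CPM, adjusted p = 1.7e-05), and TNFSF12 (TWEAK) was 2.43-fold lower (7.08 and 5.97 CPM, against 13.4 and 18.3 CPM, adjusted p = 5.5e-04).

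Of 18 tested cytokines and chemokines outside the entry, 6 were higher and 2 lower in LPO than in AFE, and 13 were higher and none lower in LPO than in PSC (8 higher without LPO replicate 1). The 33.3% higher than in AFE is near the 30.2% of all genes, while 72.2% were higher than in PSC, beside 41.5%. CXCL8 (IL-8), the main neutrophil attractant, had 0 CPM in PSC, 1.87 and 0.788 CPM in DE, 3.2 and 3.45 CPM in AFE and 153 and 151 CPM in LPO (45.8-fold in LPO against AFE, adjusted p = 7.6e-06). CXCL12, the ligand of CXCR4 and a typical product of stroma, was 3.87-fold higher (11.3 and 9.91 CPM in LPO, against 2.45 and 3.03 CPM in AFE, adjusted p = 3.4e-04). IL1A, an interleukin 1 of the same receptor as IL1B, had 7.26 and 7.02 CPM in LPO, against 0.212 and 0 CPM in AFE (65.7-fold; log2 6.04, adjusted p = 0.00376). That log2 change was 11.70 and 5.06 without AFE replicate 1 or 2, and 6.72 with the replicate block. IL18 had 9.99 and 8.43 CPM in LPO, against 3.15 and 2.32 CPM in AFE (3.37-fold, adjusted p = 0.00382). MIF ran the other way, with 215 and 210 CPM in LPO, against 875 and 921 CPM in AFE (4.23-fold lower, adjusted p = 4.6e-07).

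Markers of other cell types were read beside these results. Of all genes tested 30.2% were higher and 29.6% lower in LPO than in AFE, and 41.5% and 28.8% in LPO than in PSC. Of the leukocyte markers 9 were tested, and 2 were higher and 1 lower in LPO than in AFE, and 5 higher and none lower in LPO than in PSC. Their sum was 4.61 and 5.59 CPM in PSC, 17.6 and 14.1 CPM in DE, 23.9 and 30.3 CPM in AFE and 43.9 and 44.5 CPM in LPO. Several were at or near 0 in LPO, with 0.0499 and 0 CPM for the pan-leukocyte PTPRC (CD45), 0 and 0.0504 CPM for the macrophage receptor CD163 and 0.449 and 0.138 CPM for CSF1R. ITGAM was at 0 in both. Others were not: AIF1 had 8.79 and 8.91 CPM, SPI1 6.22 and 5.89 CPM, LYZ 4.31 and 3 CPM and CD14 1.36 and 1.32 CPM in LPO, and these 4 were called higher in LPO than in PSC. Of them SPI1 was lower in LPO than in AFE (8.59 and 13.1 CPM there, adjusted p = 0.0252), and the others were not called. CD68, a lysosomal protein that other cells make too, had 22.4 and 24.8 CPM and made up much of the LPO sum. Most markers of mesenchyme rose with the chemokines and VCAM1 at the last step: of 9 tested 7 were higher and 1 lower in LPO than in AFE. Their sum was 13.6 and 15.6 CPM in PSC, 299 and 147 CPM in DE, 378 and 385 CPM in AFE and 6421 and 6601 CPM in LPO. Most of the LPO sum was the collagens COL1A1, COL1A2 and COL3A1. The 1 lower was ACTA2, by 5.48-fold (7.41 and 7.73 CPM in LPO, against 41.1 and 42 CPM in AFE). Epithelial markers summed to 5266 and 5152 CPM in PSC, 52471 and 56960 CPM in DE, 30304 and 31226 CPM in AFE and 4695 and 4890 CPM in LPO, with 2 of 8 higher and 6 lower in LPO than in AFE. Most of each sum was the keratins KRT8, KRT18 and KRT19, which were among the 6 lower. The 2 higher were CDH1 (488 and 493 CPM in LPO, against 393 and 383 CPM in AFE) and ESRP1. The fall was 6.86-fold for KRT8, 1.75-fold for EPCAM and 1.35-fold for GRHL2. Endothelial markers summed to 18 and 19 CPM in PSC, 115 and 74.8 CPM in DE, 30.7 and 34.3 CPM in AFE and 53.8 and 50.8 CPM in LPO, with 1 of 7 higher and 2 lower in LPO than in AFE. The 1 higher was KDR (33.9 and 29.9 CPM in LPO, against 7.2 and 6.8 CPM in AFE). The 2 lower were CDH5, by 4.41-fold, and CLDN5, by 4.72-fold. The part of leukocytes, mesenchyme, epithelium and endothelium in the changes above was not tested.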

How the data were processed

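Messenger RNA of 8 pig libraries, 2 for each of PSC, DE, AFE and LPO, was isolated with Trizol and oligo(dT) beads and sequenced in pairs from stranded dUTP libraries, per the labels' protocols. The authors deposited FPKM and estimated counts per gene in 1 table. Its columns are headed with other stage names than the sample titles, and each was matched to its sample through the titles. The submitters' processing notes name HISAT2 2.2.1, StringTie 2.1.6 and cutadapt 1.9, besides edgeR and DESeq2. Coordinates are those of the file, as no build is given in the sources used here. Of the deposited counts from 1 to 12, 46.4 to 50.7% per library are multiples of 4. About 4 counts per read pair were assumed from this, so 3 read pairs were taken as 12 counts. Intervals and bounds cover counting error only.

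Counts were rounded, filtered with edgeR's filterByExpr and scaled by TMM, which left 19346 genes. They were tested with edgeR 4.0.16 (quasi-likelihood, 4 stages in 1 fit with 4 residual degrees of freedom) in R 4.3.3, with Benjamini-Hochberg adjustment over all genes tested. The same steps were tested on simulated data. Fold changes are from that fit, unless a stage held at most 3 read pairs. DESeq2 1.42.0, limma 3.58.1 on FPKM, other scalings and filters, counts divided by 4, a replicate block, the compared libraries alone and leaving out each library were the alternatives. Replicate numbers did not pair the libraries: deviations of same-numbered libraries correlated at -0.0136 to 0.00782.

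The pathway genes, their roles and the lists were chosen with earlier results of these data known. The genes named are a fixed panel, the largest called changes of each role that reach 5 FPKM, genes that failed the filter and, outside the KEGG entry, up to 3 genes per list with the smallest adjusted p in LPO against AFE. Besides these, FAS, BAG4, TAB2, TAB3, TRAF5, CASP10, MAP2K6, MAPK3, MAPK9, PIK3CA, PIK3R3, ATF2, CREB1, CREB3L2, AMCF-II, IL18R1, NOD2, IL1A and IL18 were picked after their values were seen, to complete families or show genes that run against their group. Some genes of the entry are not reported here one by one, though counts over its members include them.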

Additional observations from a re-analysis of the deposited data

How the results depend on the processing

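Of the counts of called genes over the 97, all stayed within 1.5 times their value under every alternative run except the genes lower in AFE than in DE, which numbered 22 and ranged from 14 (without AFE replicate 1) to 25 (without PSC replicate 1). Leaving out each library in turn gave 45 to 63 genes higher and 10 to 14 lower in LPO than in AFE, and 69 to 76 higher and 10 to 12 lower in LPO than in PSC. With the replicate block there were 55 higher and 14 lower in LPO than in AFE, 49 higher and 14 lower in DE than in PSC, and 89 genes differing among the stages. Counts of the short lists outside the entry moved by more under some alternatives: in LPO against AFE, without LPO replicate 1, the receptors had 3 higher and 3 lower in place of 6 and 5 and the ligands 4 higher in place of 7, and with limma on FPKM the NF-kB machinery had 4 lower in place of 7. Median centring turned the direction in LPO against PSC of MAPK14 (log2 -0.13), MAP3K7 (-0.21), PIK3R2 (-0.06) and PIK3CB (-0.48). On the FPKM scale with a pseudocount of 1 or 0.1, limma turned LPO against AFE for MAPK8 (log2 0.03 and 0.04), MAPK3 (0.40 and 0.41) and ATF4 (0.38 and 0.38), and with a pseudocount of 1 for MAP2K4 (0.42) and RPS6KA4 (0.33). It turned LPO against PSC for MAPK8 (0.09 and 0.10) and, outside the entry, for MIF (0.23 and 0.23). FPKM carry no TMM scaling, and a pseudocount of 1 shrinks the change of low genes by construction. Fitted values for CCL20 in AFE against DE ranged from -1.22 (without DE replicate 2) to 6.15 (without DE replicate 1), and its counts are at or under 3 read pairs in both AFE libraries. The other causes were not tested. Depth limits IL1B, CSF2 and IL15, which had 0.399 CPM or less in every library, where 3 read pairs come to 0.15 to 0.357 CPM.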
